A study of Mus musculus with 4 samples.

Results

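Lymphoid-primed progenitors were studied among lineage-negative, Sca1-positive, cKit-positive (LSK) mouse bone marrow cells, the fraction of hematopoietic stem cells and multipotent progenitors. They were selected on their own counts. A cell was a member when it held at least 1 unique molecular identifier (UMI, a count of 1 captured RNA molecule) of at least 2 of the 6 markers Dntt, Il7r, Rag1, Ccr9, Arpp21 and Il12a. It also had to hold a UMI of at most 1 of the 6 B-lineage genes Ebf1, Vpreb1, Vpreb3, Igll1, Cd79a and Cd79b. This lymphoid gate took 3512 of 25236 cells that carried a single hashtag, 2973 of 16207 at homeostasis and 539 of 9029 after 5-fluorouracil (5-FU).

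The series held 4 samples, a cDNA and a hashtag library for each of 2 conditions. The knockout mice carried floxed Sin3B alleles and the Vav1-iCre transgene, which drives recombination in blood-forming cells, and the wild-type mice carried the floxed alleles without Cre. All were C57BL/6, and per the study's methods 2 mice of each genotype were used per condition and pooled. They were either untreated males (homeostasis) or had received 100 mg/kg of 5-FU, a drug that kills dividing cells, by intraperitoneal injection 9 days earlier. Wild-type cells were stained with the hashtag B0096 and knockout cells with B0157, and equal numbers of both were loaded on the same 10x Genomics 3′ run. Each genotype was therefore 1 pool per condition. No spread between mice could be measured, no test was made, and intervals cover counting error only (95%, Clopper-Pearson for shares and exact Poisson for levels). Each condition was also 1 library, so conditions and libraries cannot be told apart and genotypes were compared within a library. The antibodies used to discard mature lineages included one against IL7Rα, so the sort removed cells with that receptor on their surface.

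Lymphoid-primed multipotent progenitors carry the tyrosine kinase receptor Flt3 and have largely lost the capacity to form platelets and red cells. Before commitment to B or T cells they transcribe genes of the later lymphoid program at low level, a state called lymphoid priming. Dntt encodes terminal deoxynucleotidyl transferase, which adds nucleotides at the joints of rearranging antigen receptor genes. Rag1 encodes a subunit of the recombinase that makes those rearrangements, Il7r the receptor chain for interleukin-7, and Ccr9 a chemokine receptor used in homing to the thymus. Il12a encodes the p35 chain of interleukin-12, and Arpp21 a phosphoprotein transcribed in early lymphoid cells.

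The 100 bases before the annotated start are shown for 4 of the 6 markers that chose the cells, Dntt, Il12a, Arpp21 and Ccr9. Sequences are from RefSeq (GRCm38.p6), written 5′ to 3′ on the gene's strand. Capitals mark matches on either strand to the E-box CANNTG, the motif of the E proteins of early lymphopoiesis, or to TGGGAA, the core of the Ikaros motif. An E-box stood in 34.4% and TGGGAA in 8.67% of 32851 RefSeq windows of the same length. Dntt lies at chr19:41029175-41029274 (plus strand), Il12a at chr3:68690544-68690643 (plus strand, the first of 2 listed starts), Arpp21 at chr9:112185950-112186049 (minus strand, 1 of 9 listed starts) and Ccr9 at chr9:123767111-123767210 (plus strand). Each window held at least 1 E-box, Arpp21 had 4 overlapping or separate matches, and the Il12a window held the only TGGGAA of these 4. Of windows not shown, that of Rag1 also held a TGGGAA, and those of Il7r and the second Il12a start did not. A match describes letters and shows no binding.
Dntt: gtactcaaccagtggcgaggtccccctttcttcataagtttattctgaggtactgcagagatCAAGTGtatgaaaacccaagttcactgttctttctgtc
Il12a: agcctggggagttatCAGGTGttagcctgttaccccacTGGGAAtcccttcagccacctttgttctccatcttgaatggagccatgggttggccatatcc
Arpp21: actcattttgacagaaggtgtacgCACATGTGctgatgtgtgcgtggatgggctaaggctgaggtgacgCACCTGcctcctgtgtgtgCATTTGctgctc
Ccr9: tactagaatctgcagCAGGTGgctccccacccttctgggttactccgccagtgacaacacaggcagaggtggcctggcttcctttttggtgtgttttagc

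Lymphoid-primed cells took a smaller share of the knockout than of the wild-type pool in both libraries. At homeostasis, 2559 of 11579 wild-type cells were members (22.1%, interval 21.3 to 22.9%), against 414 of 4628 in the knockout (8.95%, interval 8.14 to 9.80%). The wild-type share was 2.47 times the knockout share, and the difference, knockout minus wild type, was -13.2 percentage points (interval -14.3 to -12.0). After 5-FU, 378 of 5302 wild-type cells (7.13%, interval 6.45 to 7.86%) and 161 of 3727 knockout cells (4.32%, interval 3.69 to 5.02%) were members. That is 1.65 times as large a share in the wild type, a difference of -2.81 points (interval -3.75 to -1.85). With all 6 markers, the shares of the genotypes lay further apart than their counting intervals in each library. Without Dntt in the gate, the 5-FU shares were 1.60% (wild type) and 1.15% (knockout), and the interval of their difference held 0 (-0.93 to 0.051 points). Since the gate reads UMIs, deeper cells pass it more easily, and the median depth of all tagged cells at homeostasis was 7001 UMIs (wild type) and 6588.5 UMIs (knockout), with 9297.5 and 11259 in the 5-FU library. When every cell was thinned to 4000 UMIs, the homeostasis shares were 13.2% (interval 12.5 to 13.8%) and 4.64% (interval 4.03 to 5.31%). The thinned 5-FU shares were 2.75% (interval 2.30 to 3.27%) and 1.28% (interval 0.928 to 1.71%). Cells under 4000 UMIs were left out, 835 (wild type) and 360 (knockout) in the homeostasis library and 654 and 276 in the other. At equal depth the wild-type share was 2.84 times the knockout share at homeostasis and 2.16 times after 5-FU.

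**Figure D1:**
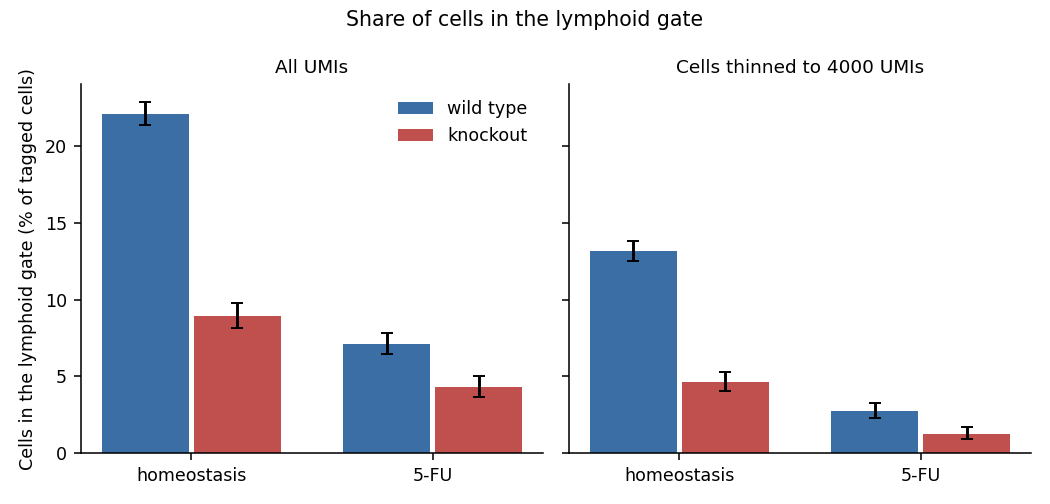
Cells in the lymphoid gate as percent of the singly tagged cells of each pool (y axis), for wild type and knockout at homeostasis and after 5-FU (x axis), with all UMIs (left) and with each cell thinned to 4000 UMIs (right). Bars are 1 pool each and error bars are 95% Clopper-Pearson intervals, and the knockout bar is the lower in each pair, at 8.95% against 22.1% and 4.32% against 7.13% with all UMIs.

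Hashtag calls bear on these shares, because 26.3% of barcodes at homeostasis and 25.8% after 5-FU had no hashtag call. Of these untagged barcodes, 678 of 6283 (10.8%) at homeostasis and 98 of 3290 (2.98%) after 5-FU met the gate. Their members held Sin3b at 27.7 (interval 23.5 to 32.4) and 14.7 (interval 8.03 to 24.6) CPM (the usual scale of sequencing counts, relative to all UMIs of the pool), against 80.3 and 109 CPM in wild-type and 21.2 and 11.0 CPM in knockout members. Counting all untagged barcodes as knockout gave knockout shares of 10.0% and 3.69%. Barcodes with both tags, which hold cells of both genotypes, were left out, and 353 of 1441 (24.5%) and 56 of 434 (12.9%) of them met the gate at median depths of 14048 and 27906 UMIs among those members. Doublets of 2 cells of the same genotype could not be removed. The libraries shared 76 cell barcodes, and without them the differences were -13.1 and -2.85 points.

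Members of the wild type held more markers per cell at homeostasis. Of the wild-type members at homeostasis, 60.3% held 2 markers, 27.6% held 3, 10.4% held 4 and 1.76% held 5. Among knockout members these shares were 75.1%, 18.1%, 6.04% and 0.725%. Cells with at least 3 markers thus formed 8.78% of one pool (wild type) and 2.23% of the other, a ratio of 3.95. After 5-FU, members with exactly 2 markers made up 82.8% in the wild type and 84.5% in the knockout. A cell with all 6 markers was found once, in the wild type after 5-FU. Just outside the gate, 3245 cells of the wild type and 1122 of its knockout counterpart at homeostasis, with 1399 and 880 in the 5-FU library, held a single marker and no more than 1 B-lineage gene. Cells with exactly 2 markers stood at 281 CPM of Dntt and those with 1 at 86.9 CPM in the homeostasis wild type, and at 277 and 45.5 CPM in the knockout.

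Dntt and Il12a carried most of the gate, and Rag1 almost none of it. At homeostasis, 88.9% of wild-type members (interval 87.6 to 90.1%) and 82.9% of knockout members (interval 78.9 to 86.4%) held a Dntt UMI. After 5-FU these shares were 94.7% (interval 91.9 to 96.7%) and 88.8% (interval 82.9 to 93.2%). Il12a was seen in 83.6% and 87.7% of members at homeostasis and in 92.3% and 94.4% after 5-FU. The pair Dntt and Il12a alone defined 36.8% of wild-type and 48.3% of knockout members at homeostasis, and 70.9% and 68.3% after 5-FU. Arpp21 was found in 51.4% of wild-type (interval 49.4 to 53.3%) and 36.7% of knockout members (interval 32.1 to 41.6%) at homeostasis, and in 23.0% and 25.5% after 5-FU. Ccr9 was found in 20.1% and 17.2% at homeostasis and in 7.41% and 3.11% after 5-FU. Il7r, whose protein the sort selected against, was found in 9.57% and 7.97% at homeostasis and in 5.82% and 4.97% after 5-FU. Rag1 was seen in 1 of 2559 wild-type and 0 of 414 knockout members at homeostasis, and in 5 of 378 and 0 of 161 after 5-FU. The upper bounds for the knockout members were 0.887% and 2.27%.

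**Figure D2:**
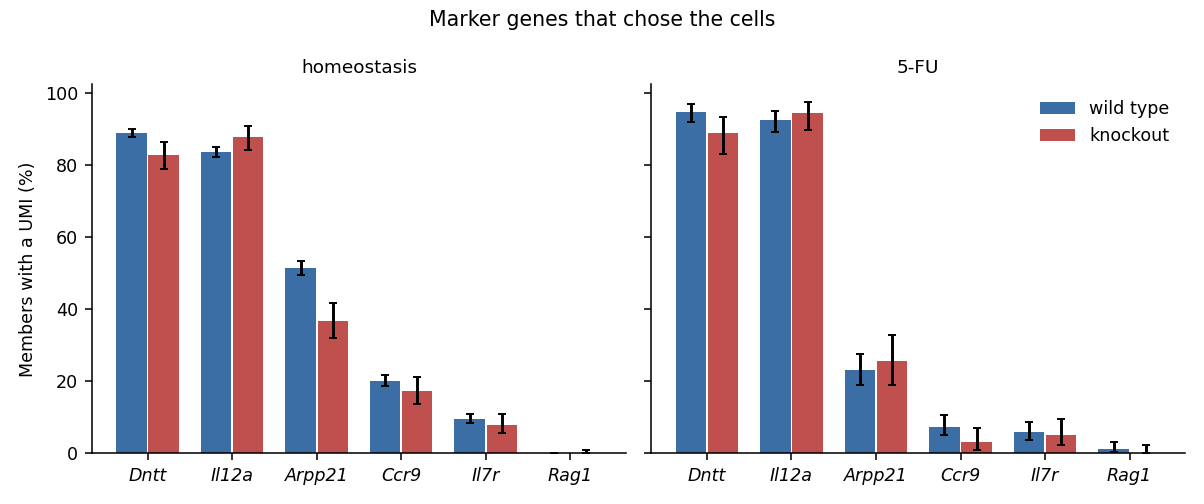
Percent of members with at least 1 UMI (y axis) of each of the 6 markers (x axis) that chose the cells, by genotype, at homeostasis (left) and after 5-FU (right), with 95% Clopper-Pearson intervals. Dntt and Il12a are each present in over 82% of members of every pool, while Rag1 reaches 1.32% at most.

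These shares are set by the rule and are given as a description. Free RNA in droplets adds UMIs to cells that do not transcribe a gene, and it held Dntt at 90.8 and Il12a at 49.5 CPM in homeostasis barcodes of at most 100 UMIs. As a comparison, cells with UMIs of at least 2 of Gata1, Klf1, Car1, Epor, Pf4 and Gp1bb (megakaryocyte-erythroid gate) were examined at the same 4000 UMIs. At homeostasis Dntt was found in 10.7% (wild type) and 3.53% (knockout) of such cells. Il12a was found in 17.9% and 7.06% of them. After 5-FU Dntt was found in 0.922% and 1.57% of such cells. Il12a was then found in 12.9% and 14.5% of them, no rarer than in all tagged cells (12.3% and 8.35%). In members at 4000 UMIs, Il12a was found after 5-FU in 83.6% (wild type) and 81.8% (knockout), shares that the rule itself sets. A second comparison was the neutrophil-primed gate at homeostasis (UMIs of at least 2 of Elane, Ctsg, Ms4a3, Fcnb and Cebpe). At 4000 UMIs it had Dntt in 21.1% (wild type) and 3.23% (knockout) and Il12a in 12.8% and 12.9%. Fewer cells met the comparison gates after thinning than before, and the knockout neutrophil-primed shares rest on very few cells. No intervals were made for these gates, so their shares cannot show a difference between the genotypes. Before thinning, the median depth of the neutrophil-primed gate was 13252 and 13642 UMIs, that of the megakaryocyte-erythroid gate 12188 and 11366 UMIs, and that of the members 8830 and 9548.5. Over all tagged cells at 4000 UMIs, the share with Dntt at homeostasis was 23.3% (wild type) and 10.2% (knockout), and 9.21% and 4.72% in the 5-FU library. Il12a was present in 20.5% and 12.8%, and in 12.3% and 8.35%. Each of these 2 genes was thus rarer in the knockout pool of both libraries before any gate was set.

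Within the gate the level of 5 of the 6 markers was also lower in the knockout, by values that the selection itself touches. At homeostasis Dntt stood at 495 CPM in wild-type and 387 CPM in knockout members, and after 5-FU at 311 and 202 CPM. Arpp21 stood at 132 and 77.6 CPM at homeostasis and at 29.6 and 17.6 CPM after 5-FU. Ccr9 stood at 43.8 and 20.1 CPM and at 8.97 and 2.09 CPM, the latter from 7 knockout UMIs. The log2 ratio, knockout over wild type, of the markers ran from -1.11 (Ccr9) to -0.28 (Il12a) at homeostasis and from -2.02 (Ccr9) to -0.48 (Il12a) after 5-FU, without Rag1. Il7r lay at -0.35 (interval -0.74 to 0.0015) and -0.50 (interval -1.32 to 0.23), and both of its intervals held 0. Members without any Dntt UMI numbered 285 of 2559 and 71 of 414 at homeostasis and 20 of 378 and 18 of 161 after 5-FU.

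The rule allows a single B-lineage gene, and 26.3% of wild-type and 24.6% of knockout members at homeostasis, and 43.4% and 43.5% after 5-FU, held a UMI of one, mostly Cd79b. Cd79b, a chain of the B cell receptor complex, was found in 19.5% of wild-type and 18.1% of knockout members at homeostasis, and in 38.9% and 38.5% after 5-FU. In all tagged cells it was found in 16.8%, 14.3%, 26.4% and 27.5%. Ebf1, the transcription factor of early B cells, was found in 2.89% and 2.66% of members at homeostasis and in 0.794% and 0 of 161 after 5-FU. At homeostasis the rule left out 111 cells (wild type) and 43 (knockout), and 51 and 20 in the 5-FU library, that met the marker side and held UMIs of 2 or more B-lineage genes. Pax5, the transcription factor that commits cells to the B lineage, was near 0 in members, with 7 wild-type and 0 knockout UMIs at homeostasis and none after 5-FU.

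The label was checked against genes that the rule did not use. Flt3, the receptor that marks these progenitors, stood at 617 CPM in wild-type members and 297 CPM in the other wild-type cells at homeostasis, and at 621 and 284 CPM in the knockout. Satb1, a chromatin organizer of early lymphoid cells, stood at 440 against 175 CPM and at 438 against 147 CPM. Ighm, the immunoglobulin mu locus, whose unrearranged transcripts precede recombination, stood at 143 against 28.9 CPM and at 136 against 26.4 CPM. After 5-FU, Flt3 was 2.59 times as high in wild-type members as in the other cells and 3.71 times as high in knockout members. Ighm was then 5.23 and 9.38 times as high. Notch1, the receptor that directs T cell fate, was 2.35 to 2.75 times as high in members across the 4 pools. Mecom, a transcription factor of stem cells, was lower in members, at 0.691 and 0.616 times the level of other cells at homeostasis and 0.624 and 0.528 times after 5-FU. Not every lymphoid factor followed. Ikzf2 stood at 0.829 to 0.924 times and Foxo1 at 0.543 to 0.929 times the level of other cells across the 4 pools. Summed neutrophil and myeloid markers after 5-FU were higher in wild-type members than in the other wild-type cells (1242 against 985 CPM), and lower in knockout members than in the other knockout cells (710 against 912 CPM). Members were not free of stem cell transcripts, and 23.0% of wild-type and 26.3% of knockout members at homeostasis, and 24.1% and 37.3% after 5-FU, also held UMIs of at least 3 of 8 stem cell genes. In the whole pools that share was 32.7% and 45.8%, and 38.4% and 57.7%.

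With each cell at 4000 UMIs, these genes followed the number of markers per cell. In wild-type cells at homeostasis Flt3 stood at 282 CPM with no marker, 446 CPM with 1, 694 CPM with 2 and 1009 CPM with 3 or more. In knockout cells the same steps read 271, 433, 755 and 939 CPM. Ighm ran across the same steps from 21.9 to 331 CPM in the wild type and from 16.05 to 328 CPM in the knockout. Mecom ran the other way, from 836 to 354 CPM in the wild type and from 1057 to 344 CPM in the knockout. The last step holds 509 wild-type but only 45 knockout cells, and after 5-FU 33 and 7 cells. In cells with no marker Mecom and Mllt3, which sustains stem cells, were higher in the knockout at homeostasis (Mllt3 357 against 263 CPM).

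**Figure D3:**
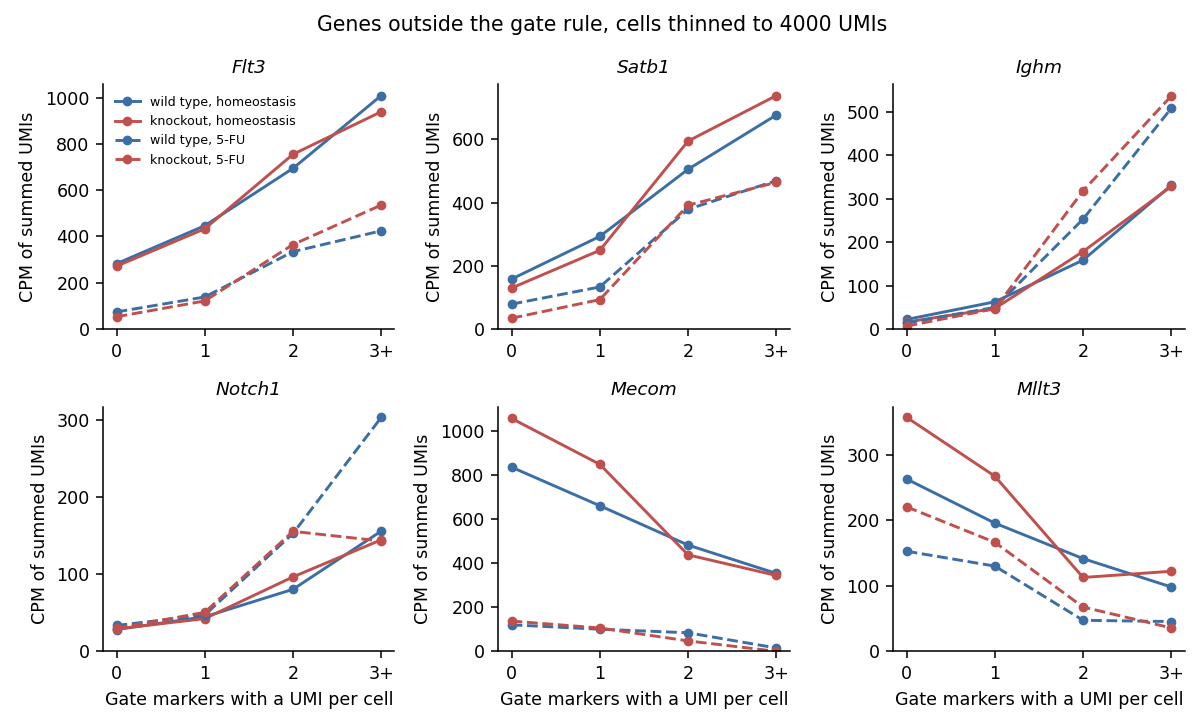
Level of 6 genes that the rule did not use, as CPM of summed UMIs (y axis), in cells grouped by how many of the 6 gate markers they held (x axis, 3+ is 3 or more), each cell thinned to 4000 UMIs. Colors are genotypes, solid lines homeostasis and dashed lines 5-FU. Flt3, Satb1, Ighm and Notch1 are higher and Mecom and Mllt3 lower at 2 markers than at 0 in all 4 pools.

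Sin3b, the deleted gene, checked the tags within the gate. At homeostasis 2111 UMIs were counted in wild-type members (80.3 CPM, interval 76.9 to 83.8) and 95 in knockout members (21.2 CPM, interval 17.2 to 26.0). After 5-FU the counts were 659 (109 CPM, interval 101 to 118) and 37 (11.0 CPM, interval 7.78 to 15.2). The log2 ratio was -1.91 (interval -2.23 to -1.62) and -3.29 (interval -3.83 to -2.83), with a Sin3b UMI in 53.1% of wild-type and 20.5% of knockout members at homeostasis and in 72.0% and 19.9% after 5-FU. Some Sin3b UMIs were thus counted in the knockout members of both libraries. Free RNA at homeostasis held the gene at 66.7 CPM, and the source of the UMIs in knockout members was not tested. Sap30, Rbbp7 and the other 14 measured genes of the SIN3 complex, its scaffolds, histone deacetylases and adaptors, lay between -0.36 and 0.48 in both libraries, with medians of 0.03 and 0.05.

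Genes were then compared between the genotypes within the gate. A gene was listed as higher or lower when its log2 ratio reached 1 or -1 and it held at least 50 UMIs over both pools of that library. Members summed to 26303530 wild-type and 4473307 knockout UMIs at homeostasis and to 6021302 and 3349264 after 5-FU. The background was 1.03% of 12799 genes higher (132 genes) and 1.95% lower (249 genes) at homeostasis, and 0.512% of 9967 genes higher (51 genes) and 1.06% lower (106 genes) after 5-FU. The median of all genes was -0.01 in both libraries. Of 9860 genes over the minimum in both libraries, 10 were higher and 17 lower in both, and 4 went opposite ways. Among these 9860 genes, the 10 were 22.7% of 44 higher at homeostasis and 20% of 50 higher after 5-FU, and the 17 were 35.4% of 48 and 16.8% of 101 lower. No test stands behind these counts.

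Most lymphoid transcription factors had ratios below 0 in knockout members, by less than 2-fold. Of 20 such genes 17 passed the minimum at homeostasis, 1 of them higher and 0 lower by the 2-fold rule against a background of 1.03% and 1.95%. After 5-FU 16 passed, with 0 higher and 0 lower against 0.512% and 1.06%. Ratios above 0 numbered 3 of 17 at homeostasis and 2 of 16 after 5-FU. The median was -0.10 at homeostasis and -0.32 after 5-FU, and in the other cells of the pools the same genes had medians of -0.10 and -0.32. Ikzf1, which encodes Ikaros, stood at 520 CPM in wild-type and 532 CPM in knockout members at homeostasis, and at 133 and 118 CPM after 5-FU. Satb1 had a log2 ratio of -0.01 (interval -0.08 to 0.06) and -0.28 (interval -0.43 to -0.13). Outside the gate it was -0.25 and -1.21. Hhex, a homeobox factor needed for early lymphoid development, had the lowest homeostasis ratio of these genes over the minimum in both libraries, -0.34 (interval -0.49 to -0.20), and -0.44 (interval -0.59 to -0.29) after 5-FU. Ets1 reached -0.89 (interval -1.41 to -0.41) after 5-FU but only -0.23 (interval -0.53 to 0.04) at homeostasis. After 5-FU Ikzf2 (-0.67, interval -0.85 to -0.48), Foxo1 (-0.66, interval -1.39 to -0.02) and Pou2f2 (-0.52, interval -0.70 to -0.35) also lay below 0. The gene that passed 2-fold was Tcf7, a T cell factor, with 134 wild-type and 116 knockout UMIs at homeostasis (2.35, interval 1.98 to 2.72). It was found in 27 of 2559 and 16 of 414 members, and after 5-FU it had 7 and 0 UMIs.

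Among receptors and surface genes, Il18r1 passed the 2-fold rule in both libraries. Of 17 genes, 16 passed the minimum at homeostasis and 14 after 5-FU, with 0 higher and 1 lower in each, against backgrounds of 1.03% higher and 1.95% lower (homeostasis) and 0.512% higher and 1.06% lower (5-FU). Medians were -0.06 and -0.12. Flt3 had ratios of 0.01 (interval -0.05 to 0.07) and -0.13 (interval -0.28 to 0.02), Notch1 0.10 and -0.11, and Ighm -0.08 and -0.21. In the other cells after 5-FU, Flt3 stood at -0.65 and Ighm at -1.05. The lower gene was Il18r1, the receptor chain for interleukin-18, at 55.3 CPM in wild-type (interval 52.5 to 58.2) and 26.8 CPM in knockout members (interval 22.2 to 32.1) at homeostasis. After 5-FU it stood at 20.4 (interval 17.0 to 24.4) and 6.57 CPM (interval 4.12 to 9.94). Its log2 ratios were -1.04 and -1.61 in members and -1.22 and -2.19 in the other cells. Ly86, which encodes the MD-1 protein of B and myeloid cells, lay just under the rule in both, at 0.90 (interval 0.47 to 1.29) and 0.98 (interval 0.23 to 1.73). Outside the gate it lay at -0.16 and -0.90. Cd52 was lower in knockout members at homeostasis (-0.56, interval -0.66 to -0.46) and higher after 5-FU (0.31, interval 0.16 to 0.45).

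**Figure D4:**
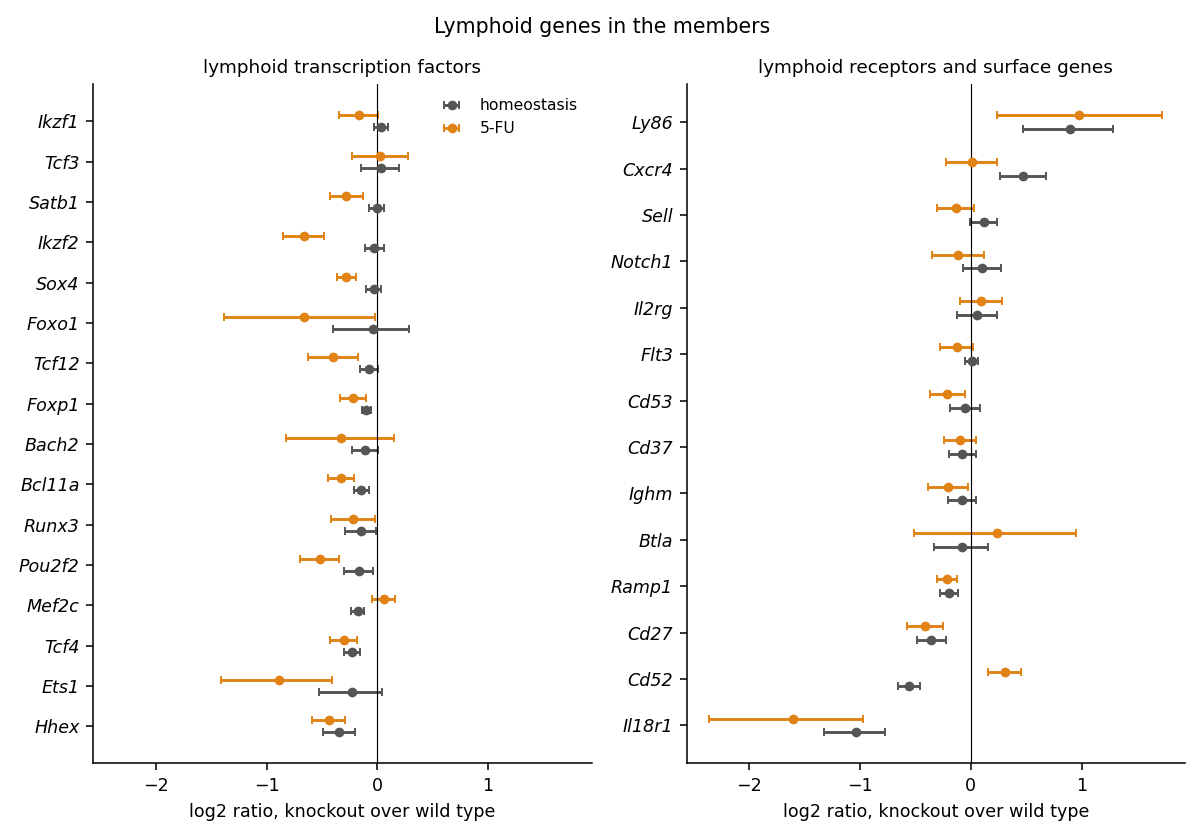
Log2 ratio of summed UMIs, knockout over wild type, in members (x axis) for the lymphoid transcription factors (left) and receptors and surface genes (right) with at least 50 UMIs in both libraries. Points are homeostasis (grey) and 5-FU (orange) and bars are exact 95% counting intervals. Most genes lie within 0.5 of 0, Il18r1 lies below -1 in both libraries and Ly86 above 0.8.

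In pathways of lymphoid development 0 genes passed 2-fold in either library, where the background was 1.03% higher and 1.95% lower at homeostasis and 0.512% and 1.06% after 5-FU. These were 11 and 8 genes of the Notch pathway over the minimum (medians -0.07 at homeostasis and -0.18 after 5-FU), 13 and 13 genes of interleukin-7 and Flt3 signaling (-0.07 and -0.18), and 11 and 8 genes of V(D)J recombination and end joining (-0.04 and 0.13). Rag2, the partner of Rag1, was nearest the rule at homeostasis, with 134 wild-type and 11 knockout UMIs (-0.99, interval -2.09 to -0.17), and after 5-FU it had 17 and 10 UMIs. A published signature of MPP4 cells, the immunophenotype closest to these progenitors, was taken without Dntt. Its median was -0.03 over 86 genes at homeostasis, with 0 higher and 2 lower (Ddx4 and Cnn3), and -0.13 over 74 genes after 5-FU, with 0 higher and 3 lower (AA467197, Wfdc18 and Cyp2j9). Summed over all 99 genes it stood at 9267 CPM in wild-type and 8490 CPM in knockout members at homeostasis, against 6692 and 6084 CPM in the other cells. After 5-FU the sums were 6702 and 6174 CPM in members and 5026 and 4599 CPM in the other cells.

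Slc16a11, which encodes a transporter of the monocarboxylate family, was the most widely detected of the genes lower by more than 8-fold in both libraries. It stood at 39.5 CPM in wild-type members (interval 37.1 to 41.9) and 4.25 CPM in knockout members (interval 2.56 to 6.63) at homeostasis, and at 36.04 (interval 31.4 to 41.2) and 3.58 CPM (interval 1.85 to 6.26) after 5-FU. It was found in 25.2% and 4.35% of members, and in 24.6% and 4.97% after 5-FU. The log2 ratios were -3.18 and -3.27 in members and -3.59 and -3.99 in the other cells. Gria2, a glutamate receptor subunit, had 430 UMIs in 150 wild-type members and 0 in knockout members at homeostasis, and 57 UMIs in 12 members and 0 after 5-FU. Its wild-type level was 24.4 and 10.6 times a floor of 3 UMIs over the knockout pool. The log2 ratio intervals ended at -4.30 and -3.06. Uchl1, a ubiquitin hydrolase, was found in 5.82% and 1.21% of members at homeostasis and in 10.8% and 1.24% after 5-FU (log2 ratios -2.28 and -3.52).

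Other genes lower in both libraries were Auts2, Lmo1 and Tpm2. Auts2, a component of a Polycomb complex, stood at 280 and 105 CPM at homeostasis and, on few UMIs, at 8.80 and 2.69 CPM after 5-FU (log2 ratios -1.42 and -1.65). Lmo1, a LIM-domain cofactor, had log2 ratios of -1.51 and -1.63, and Tpm2, a tropomyosin, -1.27 and -1.66. Lmo1 at homeostasis (-0.93) and Auts2 after 5-FU (-0.97) fell short of 2-fold without the 5% deepest cells, and Tpm2 did with at least 3 markers (-0.93 and -0.50). In the other cells these 3 genes lay between -2.35 and -1.21. Egr1, an immediate early transcription factor, stood at 22.3 and 10.7 CPM at homeostasis and at 253 and 126 CPM after 5-FU (-1.04 and -1.01). It was the only 1 of 11 immediate early genes over the minimum to pass 2-fold in either library (background 1.95% and 1.06% lower), while the medians were -0.34 and -0.28 and 10 of 11 lay below 0 in each.

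Several neutrophil transcripts were lower in knockout members but rested on very few cells. Of 10 neutrophil and myeloid markers 8 passed the minimum in each library, with 1 higher and 0 lower at homeostasis (background 1.03% and 1.95%) and 0 higher and 3 lower after 5-FU (0.512% and 1.06%). The higher gene was Csf1r, the receptor for macrophage colony-stimulating factor, with 136 wild-type and 50 knockout UMIs in 4.85% and 10.1% of members (1.12, interval 0.61 to 1.59). After 5-FU it had 31 and 29 UMIs (0.75, interval -0.03 to 1.53). Cebpa, a myeloid transcription factor, had ratios of 0.48 (interval 0.09 to 0.83) and -0.18 (interval -0.63 to 0.25). S100a8 had 1088 wild-type and 10 knockout UMIs at homeostasis, of which 964 came from 1 wild-type cell. After 5-FU it had 509 and 8, of which 499 came from 1 cell. Without the cell that held the most in each pool, its log2 ratio moved from -4.14 to -1.15 and from -5.06 to 0.36. S100a9 (-3.47 to -0.25 and -4.96 to -0.30) and Camp (-2.43 to -0.74 and -5.72 to -1.48) behaved likewise. After 5-FU Elane, the neutrophil elastase gene, had 512 and 8 UMIs, 449 of them in 1 wild-type cell, and Chil3 had 80 and 0, 78 of them in 1 cell. Without the top cells Elane stayed past 2-fold after 5-FU (-2.44), and at homeostasis it moved from -0.93 to -1.62. By share of members, Elane after 5-FU was found in 3.97% and 4.35%, and with at least 3 markers its ratio there turned to 3.05. Ngp at homeostasis had 186 and 0, 178 of them in 1 cell. In the other cells the ratios of S100a8 were above 0, at 1.73 and 1.05, and those of S100a9 at 1.52 and 1.14. By share of members, S100a8 was found in 4.45% and 2.42% at homeostasis and in 2.91% and 4.97% after 5-FU. Mpo and Ctsg, enzymes of granulocyte precursors, were more evenly spread. Ctsg was found in 26.7% of wild-type and 15.7% of knockout members at homeostasis (log2 ratio -0.83) and in 28.0% and 19.9% after 5-FU (-1.06). Mpo had ratios of -0.42 and -1.70. Cells that also met the neutrophil-primed gate were 5.31% of wild-type and 2.90% of knockout members at homeostasis and 9.79% and 7.45% after 5-FU.

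Among genes higher in knockout members of both libraries, metallothionein Mt1, which binds zinc, was spread over many cells. It was found in 11.6% of wild-type and 28.3% of knockout members at homeostasis and in 16.7% and 44.1% after 5-FU. It stood at 17.4 (interval 15.9 to 19.1) and 59.2 CPM (interval 52.3 to 66.8) at homeostasis and at 27.1 (interval 23.1 to 31.6) and 123 CPM (interval 111 to 135) after 5-FU. Its log2 ratios were 1.77 and 2.18 in members and 2.02 and 2.18 in the other cells. Mt2 had 6 wild-type and 56 knockout UMIs after 5-FU (3.97) and 70 and 17 at homeostasis (0.55, interval -0.34 to 1.29). Pbx3, a homeobox cofactor, was found in 31.1% and 51.4% of members at homeostasis and in 22.5% and 48.4% after 5-FU (log2 ratios 1.24 and 1.03). Over the alternatives its ratios went as low as 0.80 and 0.68. Hoxb2 (2.01 and 1.10) and the antisense transcript Hoxb3os (1.68 and 1.11) of the Hoxb cluster were also higher. Hoxb2 was found in 2.74% and 11.4% of members at homeostasis and in 10.8% and 28.6% after 5-FU. After 5-FU both fell short of 2-fold under some alternatives, at 0.80 for Hoxb2 and 0.29 for Hoxb3os at the lowest. In the other cells the ratios were 0.93 and 0.79 for Pbx3, 1.53 and 1.19 for Hoxb2, and 1.42 and 0.55 for Hoxb3os. Nupr1, a stress-response factor, had ratios of 1.20 and 1.84. At homeostasis Nupr1 fell short of 2-fold with a mixture model of the hashtags (0.215) and with at least 3 markers (0.43). Itgb3, Aldh1a1 and Tuba8 were also higher in both, with ratios from 1.04 to 1.57 on 18 to 204 UMIs per pool. With at least 3 markers the homeostasis ratios of Itgb3 (0.12), Aldh1a1 (0.015) and Tuba8 (0.51) fell short of 2-fold. After 5-FU Aldh1a1 turned to -1.02, and Itgb3 moved to 0.46 and Tuba8 to 0.22, without cells of the neutrophil-primed and megakaryocyte-erythroid gates. Tuba8 at homeostasis turned to -0.01 with a mixture model of the hashtags. Without the top cell of each pool, Aldh1a1 (0.95) and Tuba8 (0.89) at homeostasis and Pbx3 (0.98) after 5-FU fell short of 2-fold.

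Some platelet genes had more UMIs in knockout members. Single cells weighed heavily at homeostasis, and some ratios after 5-FU ranged widely over the alternatives. Of 10 megakaryocyte and erythroid markers 7 passed the minimum in each library, with 1 higher and 0 lower at homeostasis (background 1.03% and 1.95%) and 2 higher and 0 lower after 5-FU (0.512% and 1.06%). Pf4, platelet factor 4, had 548 wild-type and 574 knockout UMIs at homeostasis (log2 ratio 2.62), 368 of the latter in 1 cell, yet it was found in 11.6% and 11.8% of members. After 5-FU it had 309 and 1670 UMIs (3.28), 649 of the latter in 1 cell, and was found in 20.9% and 32.9%. Without the top cell of each pool its ratio was 1.29 at homeostasis and 3.05 after 5-FU. Over the alternatives its 5-FU ratio went as low as 0.04. Without the cells of the megakaryocyte-erythroid and neutrophil-primed gates the homeostasis ratio of Pf4 was -0.21. Pf4 is one of the genes that set the first of these gates, so that removal takes out Pf4-holding cells by construction. The ratio also fell below 0 without the 5% deepest cells (-0.28). Cavin2 ranked beside Pf4 (1.11 and 2.42, or 0.45 and 2.64 without the top cells). After 5-FU Vwf, the von Willebrand factor gene, was found in 3.70% and 9.94% of members (2.57, or 2.47 without the top cells). Over the alternatives that ratio went as low as 0.57. Vwf at homeostasis was found in 4.06% and 4.83% (0.98, interval 0.409 to 1.505, or 0.40 without the top cells). Car1, an erythroid carbonic anhydrase, had 4 and 89 UMIs after 5-FU, 87 of the latter in 1 cell. Of the homeostasis members 2.42% and 2.17% also met the megakaryocyte-erythroid gate, and 4.50% and 11.8% did after 5-FU, where the knockout pool as a whole had 18.2% such cells and the wild-type pool 11.3%.

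**Figure D5:**
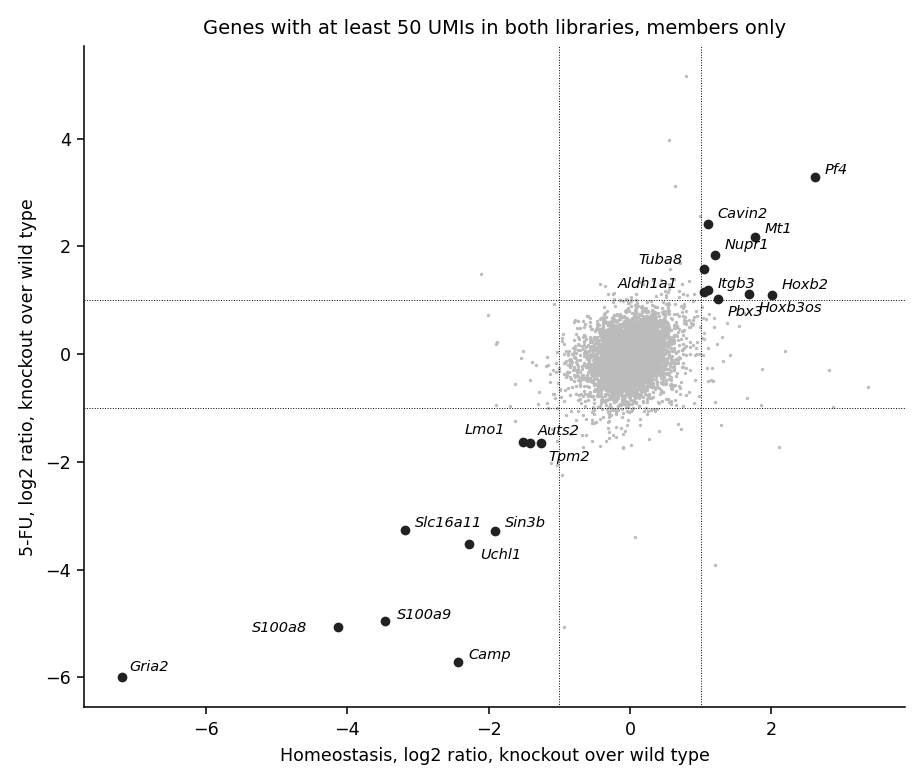
Log2 ratio of summed UMIs of members, knockout over wild type, at homeostasis (x axis) and after 5-FU (y axis) for the 9860 genes with at least 50 UMIs in both libraries. Each point is a gene, dotted lines mark 2-fold, and named points are the genes past 2-fold the same way in both with the larger ratios. Gria2, S100a8, S100a9, Camp, Slc16a11, Uchl1 and Sin3b lie far in the lower left and Pf4 and Mt1 in the upper right.

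Some of the largest ratios passed the rule in 1 library only. At homeostasis Agbl4, a carboxypeptidase that acts on tubulin, was found in 13.4% of wild-type and 56.0% of knockout members, at 32.3 and 259 CPM (log2 ratio 3.00), and it had 8 and 2 UMIs after 5-FU. Gm43305 was found in 2.74% and 23.4% (3.36) but lay at -0.62 after 5-FU, where it was found in 61.9% and 60.9% of members. Sva (3.27) was found in 2.03% and 18.6% at homeostasis. After 5-FU it had 1 and 7 UMIs, under the minimum, but its ratio lay the same way (3.17, interval 0.69 to 9.15). In the other cells Sva stood at 3.69 and 4.13. Gm37068 (3.17) was found in 1.25% and 12.3% and not after 5-FU. Slc24a2, a potassium-dependent sodium and calcium exchanger, had 458 and 3 UMIs at homeostasis (-4.48) in 143 and 2 members. Gm5532 and Arhgap42 had 83 and 58 wild-type UMIs there and no knockout UMI. Their wild-type levels were 4.71 and 3.29 times the floor of 3 UMIs, and their log2 ratio intervals ended at -1.90 and -1.37. Gm10419 was higher after 5-FU (3.11), with 10 and 50 UMIs. In the other cells at homeostasis, ratios were 3.36 (Agbl4), 2.925 (Gm43305), 3.43 (Gm37068), -0.99 (Slc24a2), -2.55 (Gm5532) and -2.12 (Arhgap42).

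T cell receptor constant region transcripts marked a small number of members at homeostasis. Trbc1, a constant region of the T cell receptor, was found in 0.899% of wild-type and 4.59% of knockout members, Trbc2 in 1.52% and 3.38%, and Id2, an inhibitor of E proteins, in 5.16% and 10.4%. Tcf7 was found in 1.06% and 3.86%. Nkg7, a granule gene of cytotoxic cells and the most widely detected of the T and NK cell list, went the other way, at 54.0% and 45.7%, as did Klrb1c, at 2.07% and 1.69%. Id2 and Tcf7 belong to other lists and were named after their values were seen. Of 5 genes of the T and NK cell list over the minimum, Trbc1 (2.08), Trbc2 (2.34) and Bcl11b (1.20), a T cell factor, were past 2-fold and higher, against a background of 1.03%. Bcl11b was found in 16 wild-type and 3 knockout members (0.625% and 0.725%), with 19 of its 33 knockout UMIs in 1 cell, and its ratio was 0.36 without the top cell of each pool. The summed level of the 11 T and NK cell markers was 113 CPM in wild-type and 128 CPM in knockout members, and 111 and 76.3 CPM in the other cells. Cd3e, which defines mature T cells, was at 0 in both pools, Cd3d had 5 and 0 UMIs and Cd3g 0 and 1. Tox2 (3.01) was seen in 16 and 4 members. After 5-FU Trbc1 had 23 and 0 UMIs, Id2 was found in 19.6% and 14.9% of members, and the summed level of the 11 markers was 186 and 159 CPM. Dendritic cell markers held 1 gene higher (Ccr2) and 1 lower (H2-Aa) of 7 at homeostasis (background 1.03% and 1.95%) and none past 2-fold after 5-FU (0.512% and 1.06%). Of the 63 knockout UMIs of Ccr2, 38 came from 1 cell, and its ratio moved from 2.20 to 0.97 without the top cells.

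S phase genes lay mostly above 0 in both libraries, G2 and M phase genes below 0 at homeostasis and above 0 after 5-FU, and no gene of either list passed 2-fold (background 1.03% higher and 1.95% lower, then 0.512% and 1.06%). Of 20 S phase genes, 18 lay above 0 in the knockout members at homeostasis and 19 after 5-FU, with medians of 0.18 and 0.44. Of 20 G2 and M phase genes, 3 lay above 0 at homeostasis and 20 after 5-FU, with medians of -0.22 and 0.42. In the other cells the S phase medians were -0.17 and 0.32 and the G2 and M medians -0.29 and 0.51. Rrm2, a subunit of ribonucleotide reductase, had the largest S phase ratio of both libraries, 0.55 and 0.80. Knockout members after 5-FU were also deeper, with a median of 18033 UMIs against 13254 in the wild type, and without the 5% deepest cells the S phase median was 0.18 and the G2 and M median 0.62. Of 16 G1 regulators 1 was higher by 2-fold at homeostasis (background 1.03%) and none after 5-FU (0.512%). It was Ccne1, cyclin E1, with 77 and 32 UMIs in 2.54% and 6.76% of members (1.30, or 1.29 without the top cells), and 0.32 after 5-FU. Ccnd3, a cyclin of G1, stood at 0.57 (interval 0.52 to 0.63) at homeostasis and -0.16 (interval -0.34 to 0.0037) after 5-FU. The Rb family and DREAM complex, with which SIN3B acts in repression of cell cycle genes, held no gene past 2-fold on the same backgrounds, with medians of 0.01 and 0.36.

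Interferon response genes had medians of -0.36 and -0.24 in members, with 2 of 11 (Ifit1 and Xaf1) lower by 2-fold after 5-FU (background 1.06%) and none at homeostasis (1.95%). In the other cells the medians were -0.08 and -0.01. Xaf1 went the other way at homeostasis, in 25.1% of wild-type and 31.6% of knockout members (0.37 without the top cells). Ifit1 after 5-FU rested on 73 and 14 UMIs in 30 and 11 members. Of the stem cell markers, 1 of 10 was higher at homeostasis (Clec1a, 1.61, background 1.03%) and 2 after 5-FU (Vwf and Ctnnal1, background 0.512%), with medians of 0.11 and -0.09 against 0.40 and 0.19 in the other cells. Mecom stood at 0.17 and -0.27 and Hlf at -0.30 and -0.38. The progenitor surface genes held no gene past 2-fold in either direction (background 1.03% higher and 1.95% lower, then 0.512% and 1.06%). All 5 lay below 0 in both libraries, with medians of -0.13 and -0.20. Of the 9860 genes over the minimum in both, 58.8% had the same sign in both libraries.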

How the data were processed

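LSK cells of 4 genotype pools were analysed, 2 in each condition. The authors deposited raw UMI counts per gene and barcode for 32285 genes and 2 hashtags, made with Cell Ranger (4 for homeostasis, 6.0.1 for 5-FU, per the file headers). The submitters' processing notes list mm9, and no coordinates were taken from the files. The homeostasis matrix was unfiltered (6794880 barcodes), and a barcode was kept from 2921 UMIs, which is 10% of the 99th percentile among the 10000 deepest. Its gene names came from the 5-FU feature list. Hashtags were classified with HTODemux (Seurat 5.3.0, quantile 0.99), keeping 11 barcodes of the 5-FU library without a hashtag UMI. The genotype of each hashtag came from the study's methods, not from the labels. The study's own filters on quality and lineage genes were not applied.

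UMIs were summed over the members of each pool. Ratios are log2 of the sums with 0.5 added, over pool totals, with exact conditional intervals, and the script was tested on simulated data. A gene needed 50 UMIs over both pools. Named were the markers, members of fixed lists that lay furthest from 0 the same way in both libraries or needed an account, up to 10 genes per direction past 2-fold in both libraries, up to 5 per direction and library, and Sin3b. Egr1 and Il18r1 are both list members. Members, lists and gates were chosen with earlier results of these data known. Knockout pools held fewer UMIs, so their values are the less precise. Alternatives covered hashtag calls, gate, depth, minimum and scaling (TMM, edgeR 4.0.16). Python 3.11.15 and R 4.3.3 were used.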

Additional observations from a re-analysis of the deposited data

Results flagged for a closer look

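Barcodes without a hashtag call were left out of the main comparisons between the genotypes, and some of them met the lymphoid gate. They numbered 678 of 6283 at homeostasis (10.8%, interval 10.0 to 11.6%) and 98 of 3290 after 5-FU (2.98%, interval 2.42 to 3.62%). Their median depth was 7084.5 and 9082 UMIs, with a median of 200 and 165 hashtag UMIs. Slc16a11 stood in them at 9.77 CPM (interval 7.34 to 12.8) and 1.05 CPM (interval 0.0266 to 5.84), between the pools at homeostasis. The 5-FU value is 1 UMI, and its interval holds the knockout value of 3.58 CPM. Mt1 stood at 44.9 CPM (interval 39.5 to 50.8) and 29.4 CPM (interval 19.5 to 42.5). The 5-FU value was near wild-type (27.1 CPM) and far from knockout members (123 CPM). Dntt stood at 521 and 677 CPM, against 495 and 311 CPM in wild-type and 387 and 202 CPM in knockout members. Flt3 stood at 744 and 399 CPM, against 617 and 184 CPM in wild-type and 621 and 168 CPM in knockout members. Arpp21 lay between the pools at homeostasis (110 CPM) and above both after 5-FU (49.3 CPM). What set these barcodes apart was not tested.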

How the results depend on the processing

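The share of lymphoid-primed cells was lower in the knockout under all 19 alternatives in each library. These reuse the same pools and are not independent. Leaving out Rag1 changed no member count, nor did dropping hashtag-free barcodes at homeostasis. Differences in percentage points outside the counting interval were, at homeostasis, -11.96 (80% of hashtag UMIs from 1 tag), -11.99 (cells with sort lineage genes removed), -6.56 (at least 3 markers), -9.55 (no B-lineage UMI), -7.37, -10.82 and -8.65 (without Dntt, Arpp21 or Il12a) and -8.53 (thinned). After 5-FU they were -0.56 (at least 3 markers), -1.59 (no B-lineage UMI), -0.45 and -0.83 (without Dntt or Il12a; the former's interval, -0.93 to 0.051, held 0), -3.93 (barcodes without hashtag UMIs dropped first) and -1.48 (thinned). Genes higher by 2-fold numbered 308, 33 and 2012 at homeostasis with a minimum of 20, 200 or no UMIs, and lower ones 505, 83 and 1207, or 378 with at least 3 markers. After 5-FU the higher ones numbered 138, 4 and 1225, 108 with at least 3 markers, 130 without Dntt and 29 without cells of the neutrophil-primed and megakaryocyte-erythroid gates, and lower ones 258, 17 and 1309 by minimum. Ratios that turned sign at homeostasis were Pf4 (-0.23 without the 2% tails of UMIs, genes and mitochondrial share, -0.28 without the 5% deepest cells, -0.074 with 3 markers, -0.21 without those gates), Cavin2 (-0.0344) and Tox2 (-1.33) with 3 markers, Tuba8 (-0.014, mixture model of hashtags) and S100a9 (0.14 without the tails, 0.11 without the deepest). After 5-FU they were Aldh1a1 (-1.02 without those gates), Car1 (-0.065 without the deepest), S100a8 (0.23 with the 80% rule, 0.72 with 3 markers, 0.28 without Dntt, 0.33 without those gates, 0.36 without its top cell) and S100a9 (0.078 with the 80% rule, 0.14 without those gates). Camp (0.72, 0.28, 0.96), Chil3 (0.72, 0.28) and Elane (3.05, 0.96) turned with 3 markers, without Dntt (Camp and Chil3) and without those gates (Camp and Elane). Pf4 and Elane are themselves genes of those gates, so their values without them are partly fixed by the removal. Median ratios of lists moved at homeostasis for lymphoid factors (-0.0215 mixture, -0.18 without Dntt), receptors (0.0639 matched by marker number, 0.23 mixture) and IL-7 and Flt3 signaling (0.0595 without Dntt). After 5-FU they moved for receptors (0.0961 mixture, -0.37 with 3 markers, -0.55 without Dntt), V(D)J genes (0.28 and 0.28), S phase (0.18 without the deepest), G2 and M phase (1.63 and 1.21), immediate early genes (-1.45 and -0.76) and interferon genes (-0.68 with 3 markers), pairs being 3 markers and without Dntt. Apart from the minimum and the smaller pools, the cause was not tested. Alternatives were added after seeing the data, on hashtag-free barcodes, untagged cells, shared barcodes and other gates, and so was the removal of top cells. No paired analysis was possible because each genotype was 1 pool per library and the labels give no replicate numbers.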
